A study of Mus musculus with 9 samples.

Results

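Libraries of mouse medial prefrontal cortex (mPFC) with overexpression of YTHDF1 and YTHDF2 (OE) were compared with libraries of the insoluble fraction of the same tissue at 22 months of age, with 3 libraries in each group. All 237 genes that carry an identifier in the table of this comparison were taken as members, which is every gene listed in the series, since the 194 genes of the other table are among them. The series held 9 libraries in 3 groups, and the 6 libraries of these 2 groups were used here. All 6 came from C57BL/6 mice. The age of the OE animals, the vector and cell type of the overexpression, the fraction from which OE RNA was taken and the number of animals behind a library are not given in the sources used here. Fraction, age and overexpression therefore cannot be told apart in this contrast, and if the libraries of a group share animals the p-values measure technical spread only.

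YTHDF1 and YTHDF2 are cytoplasmic proteins that read N6-methyladenosine (m6A), a methyl mark on adenosines of mRNA. YTHDF2 is best known for directing marked mRNA to decay, and YTHDF1 for promoting its translation. Both carry low-complexity regions through which they join condensates with RNA, and protein and RNA that leave solution are recovered in an insoluble fraction. The series named mitochondrial morphology genes as its interest. OPA1 is the dynamin-related GTPase that fuses the inner mitochondrial membrane, and FIS1 is an outer-membrane protein of mitochondrial fission.

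The listed genes summed to between 66812 and 77705 counts per library in the insoluble fraction and between 80116 and 99369 in OE. These are totals over listed genes and not library depths, and how the genes were selected is not given in the sources used here, so every level and direction is relative to the other listed genes. No gene of the 25 neuronal, 15 astrocyte, 19 oligodendrocyte or 20 microglial markers looked for was listed, nor any of 16 m6A readers and enzymes. Neither the tissue nor the overexpression label could therefore be checked on its transcripts.

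The table gave the mitochondrial proline tRNA gene mt-Tp the highest counts, and its sequence is shown because no other listed gene took a larger share of the counts. The gene lies at chrM:15356-15422 on the minus strand (GRCm38), and capitals mark the anticodon, taken as the central bases of the loop between its paired CCAGC and GCTGG stems. The sequence is that of the annotation, written 5′ to 3′.
mt-Tp: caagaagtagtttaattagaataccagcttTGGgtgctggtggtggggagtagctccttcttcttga

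The mark m6A is placed within a short consensus of which GGACT is the best known form. For 6 members that differed between the groups, the first coding GGACT whose window lay inside 1 exon is shown. GGACT is in capitals, with 12 bases on either side and coordinates on GRCm38. The longest transcript of Tbx2, also called higher in OE, holds no GGACT. Abcc6, She and Opa1 were called higher in OE, and Cd93, Ptprb and Notch4 lower.
Abcc6 (chr7:45982139-45982167, minus strand, exon 26): ggagcgcgtgcaGGACTacgctcgcatcc
She (chr3:89834146-89834174, plus strand, exon 2): catcattttagaGGACTacgctgacccgt
Opa1 (chr16:29588331-29588359, plus strand, exon 4): cagcttgttgaaGGACTtcttcactgcag
Cd93 (chr2:148443314-148443342, minus strand, exon 1): tggtgtgcgaggGGACTgcctgctataca
Ptprb (chr10:116302178-116302206, plus strand, exon 2): ctatccagtggaGGACTttcgcgtcaccc
Notch4 (chr17:34568165-34568193, plus strand, exon 5): tttcacggggctGGACTgtgagatgaacc

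GGACT, read on the transcript strand of the longest transcript, occurred at a median of 1.19 per kb in the 31 protein-coding genes called higher, 1.001 per kb in the 26 called lower and 1.27 per kb in the 78 tested but not called. It was present at least once in 87.1%, 88.5% and 92.3% of these genes, against 88.3% of all 21951 annotated protein-coding genes, whose median was 1.003 per kb. A match says nothing about whether the site was methylated or bound.

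Of the 237 genes, 195 passed the low-count filter and were tested, and 42 did not, all of them with a mean of at most 9.60 normalised counts. Raw counts were tested with edgeR's quasi-likelihood test, and a gene was called at a Benjamini-Hochberg (BH) adjusted p-value under 0.05. In OE 41 genes were higher and 36 lower, so 39.5% of the tested genes were called, 21.0% as higher and 18.5% as lower. Differences were small. The log2 fold change (OE minus insoluble) had a median of 0.50 among genes called higher and -0.43 among those called lower, and 3 called genes exceeded 1 in size. Normalised counts, scaled here by the effective (TMM) size of each library over the average of the 6 libraries, did not overlap between the groups in 73 of the 77 called genes and in 23 of the 118 not called, or 49.2% of the tested genes in all.

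The split between directions moved with the scaling. With plain library totals in place of TMM 31 genes were higher and 47 lower, and with the authors' own size factors 36 were higher and 40 lower. Upper-quartile scaling gave 43 higher and 32 lower, scaling free of mitochondrially encoded genes 43 and 30, and DESeq2 with its size factors 30 and 23. Leaving out a library lowered both numbers from the 41 higher and 36 lower of the main test. They were 33 and 22 without insoluble replicate 3, and 32 and 23 without OE replicate 1.

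**Figure D1:**
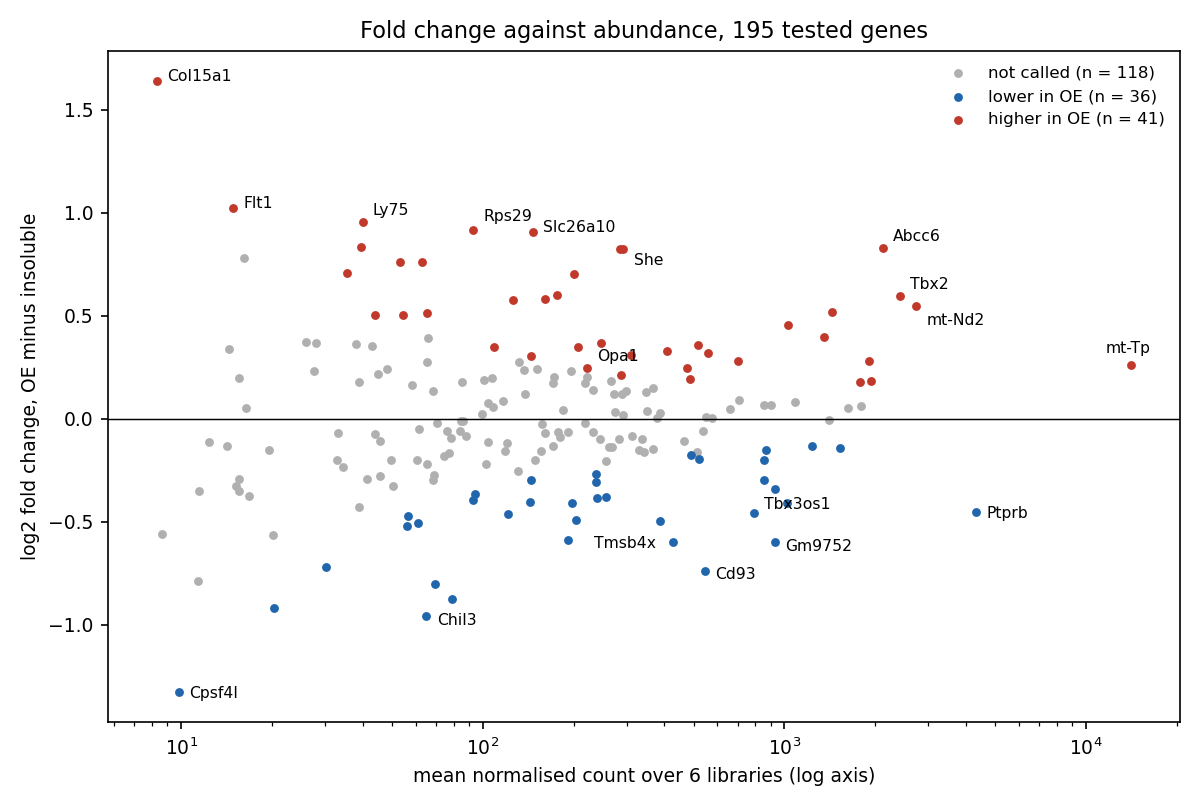
Log2 fold change (OE minus insoluble, y axis) against the mean normalised count over the 6 libraries (x axis, log scale) for the 195 tested genes, with 41 genes called higher in OE in red, 36 called lower in blue and 118 not called in grey. The most abundant called genes, mt-Tp, Ptprb, mt-Nd2, Tbx2 and Abcc6, lie within 1 log2 unit of 0, and the points farthest from 0, Col15a1 and Cpsf4l, lie at the low-count edge.

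Among genes higher in OE, Abcc6 and Tbx2 were the most abundant after the mitochondrially encoded ones. Abcc6, an ABC transporter whose loss causes ectopic calcification, held 1465, 1595 and 1520 normalised counts in insoluble replicates 1 to 3 and 2751, 2930 and 2459 in OE replicates 1 to 3. Every OE library stood above every insoluble library, and the log2 fold change was 0.83 ± 0.04 (SE, edgeR adjusted p = 2.37e-36). Tbx2, a T-box repressor of transcription, held 1866, 1924 and 1961 in insoluble libraries against 2920.2, 2925 and 2863 in OE. Its libraries were among the tightest, with a rise of 0.60 ± 0.04 (SE, edgeR adjusted p = 1.02e-28).

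Less abundant genes were also called higher. The chemokine Cxcl12, ligand of CXCR4, rose from 153.6 ± 14.9 to 248.8 ± 20.97 normalised counts (SD, 3 libraries each, log2 fold change 0.71, edgeR adjusted p = 4.08e-09). Pltp, which transfers phospholipids between lipoproteins, rose from 46.6 ± 4.6 to 79.1 ± 9.6 (log2 fold change 0.76, adjusted p = 0.000182), and Ly75, an endocytic receptor of dendritic cells, from 27.5 ± 7.2 to 52.4 ± 10.2 (log2 fold change 0.96, adjusted p = 0.000232). Abcb6, a porphyrin transporter, rose from 140.2 ± 17.6 to 213.2 ± 15.3 (log2 fold change 0.60, adjusted p = 1.55e-06), but 66.8% of its 50-base words also occur in the overlapping gene Gm29253, so its count is uncertain. Pltp overlaps Ctsa, and Slc26a10, an SLC26 family member (log2 fold change 0.91), overlaps B4galnt1. Without knowledge of strand, reads in such overlaps cannot be assigned. The limit is general: the spans of 43 of the 77 called genes and 106 of the 195 tested overlap another annotated gene. Abcc6, Ptprb, Notch4, Bmp5 and Gm9752 are among them, and mitochondrially encoded genes were not assessed.

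Mecom, a zinc-finger transcription factor, had 29, 17 and 28 raw counts in insoluble libraries against 56, 42 and 44 in OE. The groups did not overlap, and the log2 fold change was 0.71 ± 0.24 (SE, edgeR adjusted p = 0.012). Mecom lost its call in DESeq2 (adjusted p = 0.092), without OE replicate 1 (0.0659) and without insoluble replicate 2 (0.104). Col15a1, a basement membrane collagen, had the highest log2 fold change, 1.64, on 2 to 6 raw counts against 13 to 15. Its call was lost in DESeq2 (adjusted p = 0.051), without insoluble replicate 2 (0.0777) or 3 (0.0683) and without OE replicate 2 (0.0637) or 3 (0.0532).

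Among genes lower in OE, Tmsb4x, which encodes the actin-monomer binding peptide thymosin beta 4, held 545, 499 and 504 normalised counts in insoluble libraries against 345, 332 and 348 in OE. The groups were far apart relative to their spread, with a log2 fold change of -0.60 ± 0.07 (SE, edgeR adjusted p = 1.03e-11). Bmp5, a bone morphogenetic protein ligand, held 224, 215 and 249 in insoluble libraries against 139, 160.3 and 159 in OE, a log2 fold change of -0.59 ± 0.10 (SE, adjusted p = 1.12e-06). Plekhg2, a guanine nucleotide exchange factor, fell from 237.8 ± 13.2 to 169.1 ± 20.01 normalised counts (SD, 3 libraries each, log2 fold change -0.49, adjusted p = 2.72e-05).

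Lower counts made other calls in this direction less firm. Card10, a scaffold of NF-kappaB signalling, held 37, 34 and 33 raw counts in insoluble libraries against 24, 32 and 18 in OE (log2 fold change -0.72, edgeR adjusted p = 0.0181). Its call was lost in DESeq2 (adjusted p = 0.085), without insoluble replicate 1 (0.0613), 2 (0.0538) or 3 (0.0604) and without OE replicate 1 (0.0741) or 3 (0.0587). Cpsf4l, the lowest of all at a log2 fold change of -1.33 on 11 to 17 raw counts against 5 to 8, lost it in DESeq2 (0.0784), without insoluble replicate 1 (0.113), 2 (0.0598) or 3 (0.0602) and without OE replicate 1 (0.0809) or 3 (0.0646).

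**Figure D2:**
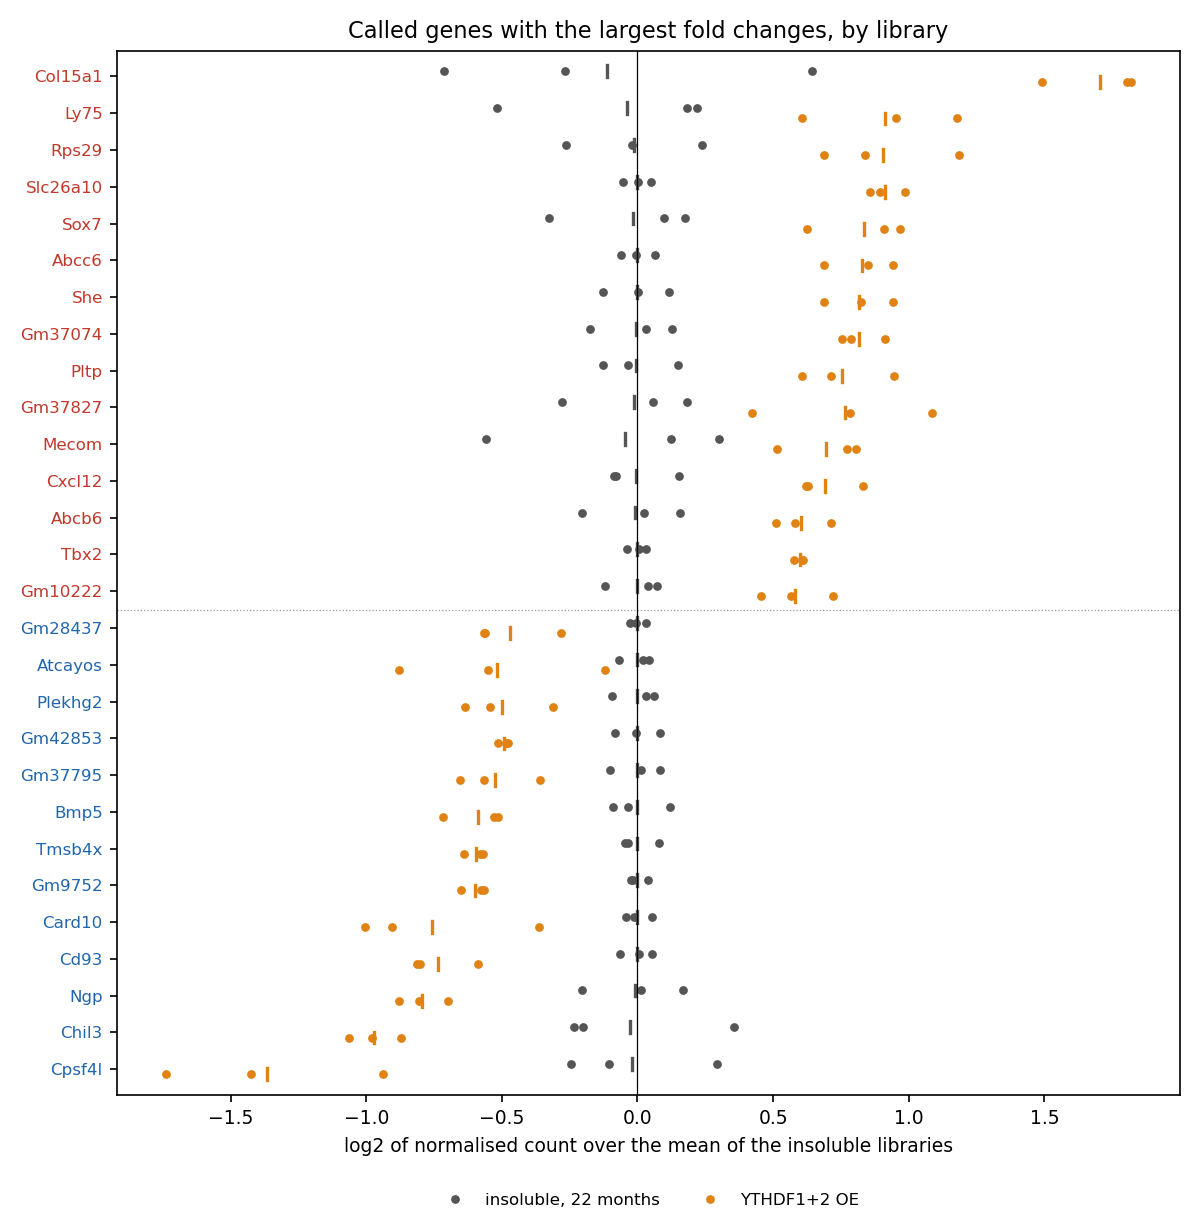
Log2 of each library's normalised count over the mean of the 3 insoluble libraries (x axis) for called, non-overlapping genes among those with the highest (15, red names) and lowest (13 of 15, blue names) log2 fold changes. Grey points are insoluble and orange points OE libraries, and bars are the means of the log values. No OE point lies among the insoluble points of its own gene, which the choice of these genes requires, and the points of Col15a1 and Cpsf4l spread most.

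Genes of blood vessel endothelium were the largest of the fixed lists in the table, with 33 of 78 members listed, 26 of them tested. They moved in both directions: 5 were called higher, 5 lower and 16 were not called. That share, 38.5%, is near the 39.5% of all tested genes, and the median log2 fold change of 0.04 was near the -0.01 of all tested genes. Endothelial cells line the vessels and form the blood-brain barrier. Their identity is kept by SOXF and ETS transcription factors, and VEGF, TIE and Notch receptors control how vessels sprout and rest.

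Among 6 tested transcription factors of the list, 3 were called higher and none lower, where 21.0% of all tested genes were called higher. The roles within the list were assigned with these values known, and the calls of Erg and Sox17 were each lost in several alternatives. Sox7 held 30.3, 22.6 and 32.0 normalised counts in insoluble libraries against 43.7, 53.1 and 55.4 in OE, without overlap (log2 fold change 0.83 ± 0.22 SE, edgeR adjusted p = 0.00132). Its relative Sox17 held 127, 136 and 126 against 184, 154 and 139, again without overlap but with a smaller log2 fold change of 0.30 ± 0.12 (SE, adjusted p = 0.0301). The third SOXF gene, Sox18, had 106 ± 10 and 111 ± 18 normalised counts (SD, 3 libraries each, log2 fold change 0.06, adjusted p = 0.761), within the spread of its libraries.

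The ETS factor Erg held 31.4, 31.2 and 47.4 normalised counts in insoluble libraries against 59.6, 43.1 and 51.2 in OE, and its groups overlapped (log2 fold change 0.50, edgeR adjusted p = 0.0469). Erg lost its call in DESeq2 (adjusted p = 0.231), with the authors' size factors (0.0654) or library totals (0.109), without the low-count filter (0.0558), without insoluble replicate 1 (0.212) or 2 (0.21) and without OE replicate 1 (0.226) or 3 (0.0587). Sox17 lost it in DESeq2 (0.195), with the authors' size factors (0.0557) or library totals (0.144), without insoluble replicate 1 (0.121), 2 (0.074) or 3 (0.0924) and without OE replicate 1 (0.263). Sox7 kept its call in all 14 alternatives that tested it. Ets1 (log2 fold change 0.02) and Lef1 (0.18), an effector of Wnt signalling, were not called, and Foxq1 and Foxf2, at 4 raw counts or fewer in every library, were not tested.

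Of 12 tested receptors, ligands and surface phosphatases of endothelium, 3 were called lower (Ptprb, Cd93 and Notch4) and 1 higher (Flt1), or 33.3%, near the 39.5% of all tested genes. Ptprb, the vascular endothelial phosphatase that acts on TIE2 and VE-cadherin, was the second most abundant listed gene by count, with 5064, 4974 and 4980 normalised counts in insoluble libraries against 3733, 3726 and 3528 in OE. The groups were separated by far more than their spread (log2 fold change -0.45 ± 0.03 SE, edgeR adjusted p = 3.94e-26). Cd93, a lectin-like receptor of endothelium, held 683, 706 and 650 against 386, 390.3 and 452, the lowest log2 fold change among endothelial genes at -0.74 ± 0.07 (SE, adjusted p = 8.96e-18).

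Notch4, the endothelial Notch receptor, fell from 263.0 ± 18.1 to 213.6 ± 22.3 normalised counts (SD, 3 libraries each, log2 fold change -0.30, edgeR adjusted p = 0.00696), and lost its call without insoluble replicate 3 (0.0969) and without OE replicate 1 (0.11). Its ligand Dll4 was not called, at 181.2 ± 10.2 and 172.7 ± 16.6 (adjusted p = 0.655). Summed over the 33 listed endothelial genes, normalised counts were 12783 ± 134 in the insoluble fraction and 11297 ± 116 in OE, and without Ptprb 7777 ± 108 and 7635 ± 85, so Ptprb made up most of that difference. Cell number, RNA per cell, fraction, age and overexpression cannot be told apart in such bulk libraries. None was tested as a source of that difference.

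Of 3 listed VEGF receptors 1 was called, where 39.5% of all tested genes were called. Kdr, the main signalling receptor, held 187, 193 and 206 normalised counts in insoluble libraries against 166, 202 and 194 in OE, overlapping (log2 fold change -0.06, 95% interval -0.27 to 0.14). Flt4, the VEGF-C receptor, had 58.8 ± 6.0 and 71.3 ± 7.6 (SD, 3 libraries each, edgeR adjusted p = 0.208). Flt1, a decoy receptor, was called higher on 3, 16 and 8 raw counts against 26, 24 and 15 (log2 fold change 1.02, adjusted p = 0.0267), with overlapping groups. Its log2 fold change was 0.57 without insoluble replicate 1 and 1.73 without insoluble replicate 2. The call was lost in DESeq2 (0.152), without insoluble replicate 1 (0.269) or 3 (0.0946) and without OE replicate 1 (0.134) or 2 (0.141). Per kilobase of longest transcript, Kdr stood at 33.0 normalised counts in the insoluble fraction, Flt4 at 9.40 and Flt1 at 1.44.

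Of the remaining receptors, Tie1 had the widest OE libraries, with 42.0, 24.7 and 65.8 normalised counts against 47.5, 44.1 and 48.6 in the insoluble fraction (edgeR adjusted p = 0.711). Robo4, a guidance receptor that stabilises vessels, held 45.5, 45.2 and 46.2 against 43.7, 33.9 and 33.4, without overlap and not called (log2 fold change -0.29, adjusted p = 0.281). Eng, a co-receptor for TGF-beta ligands, had 37.3 ± 2.3 and 31.3 ± 7.3 (SD, 3 libraries each, adjusted p = 0.436).

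Among the other endothelial genes She, an SH2-domain adaptor, rose the most, with 211, 194 and 229 normalised counts in insoluble libraries against 374, 406 and 341 in OE (log2 fold change 0.83 ± 0.09 SE, edgeR adjusted p = 2.07e-14). Ushbp1 fell from 946.3 ± 20.5 to 768.9 ± 32.4 (SD, 3 libraries each, log2 fold change -0.30, adjusted p = 4.39e-06), as did Cyyr1, from 106.6 ± 2.5 to 82.4 ± 5.0 (log2 fold change -0.36, adjusted p = 0.028). Cyyr1 lost its call in DESeq2 (0.115), without insoluble replicate 1 (0.0541), 2 (0.0623) or 3 (0.0811) and without OE replicate 2 (0.058) or 3 (0.0587).

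Several genes of endothelial function were not called. Nos3, the endothelial nitric oxide synthase, had 1753 ± 59 and 1834 ± 83 normalised counts (SD, 3 libraries each), and the 95% interval of its log2 fold change ran from -0.02 to 0.15. Podxl, a sialomucin of the luminal surface, had 1599 ± 28 and 1662 ± 54, with an interval of -0.03 to 0.14. Cdh5, the adhesion protein of endothelial junctions, had 101.5 ± 15.95 and 106.4 ± 21.96 (interval -0.19 to 0.35). The defining markers Pecam1 and Cldn5 were nearly absent, at 1 to 3 and 6 to 8 raw counts over the 6 libraries, and Slco1a4, a transporter of brain endothelium, had a single count in all.

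**Figure D3:**
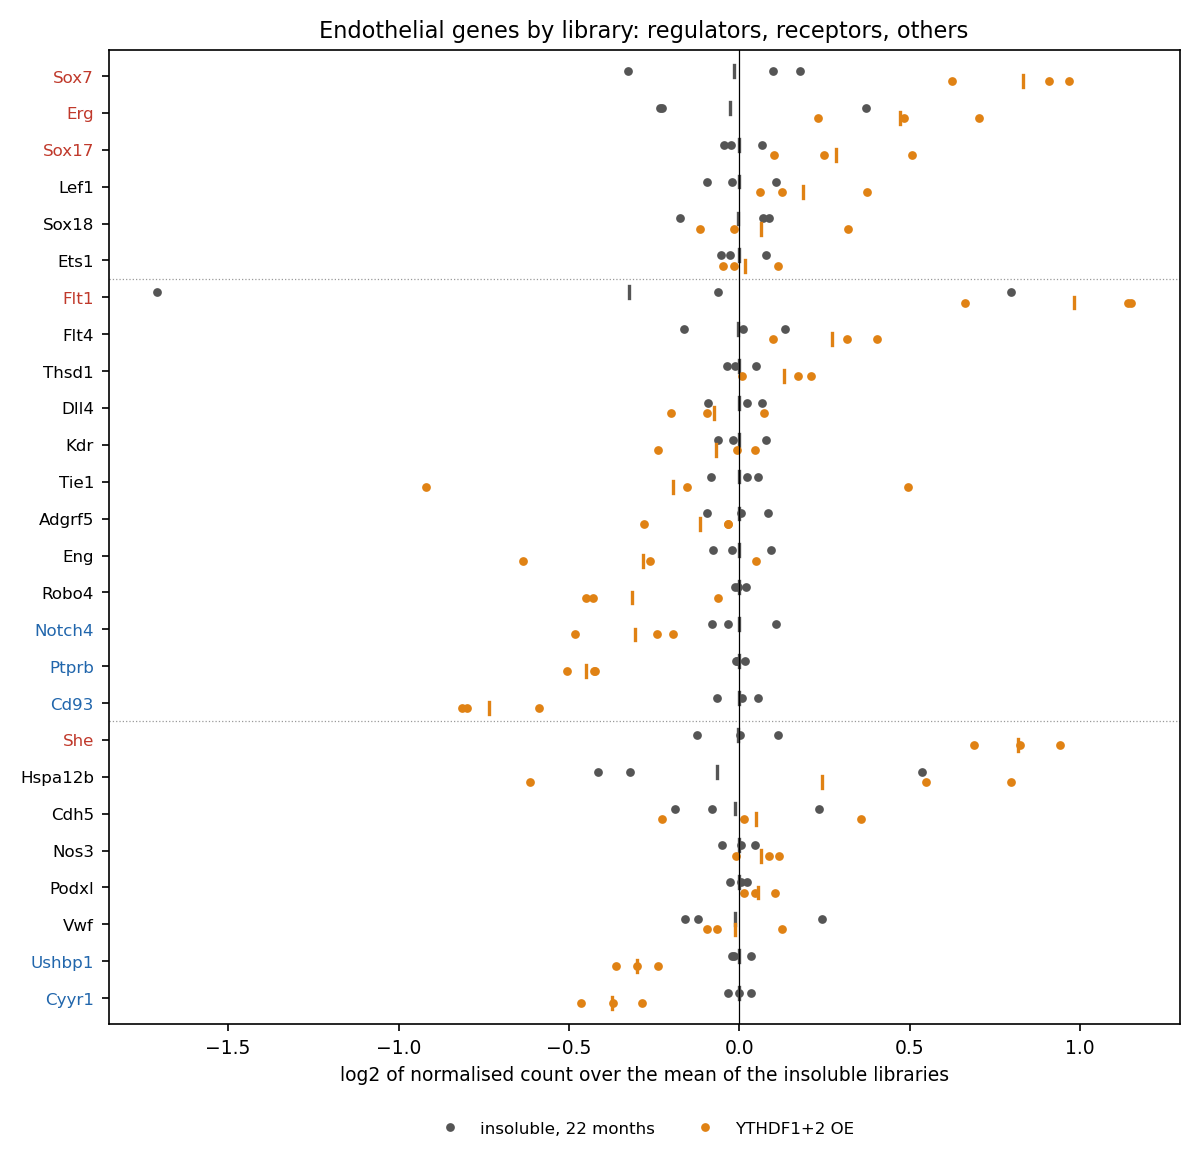
Log2 of each library's normalised count over the mean of the insoluble libraries (x axis) for the 26 tested endothelial genes, with transcription factors above, receptors, ligands and surface phosphatases in the middle and other genes below, separated by dotted lines. Grey points are insoluble and orange points OE libraries, bars are means of the log values, red names were called higher and blue names lower. The 3 called transcription factors lie to the right. Called genes of the other blocks lie on both sides. Flt1 and She lie to the right, and Notch4, Ptprb, Cd93, Ushbp1 and Cyyr1 to the left. The points of Erg and Flt1 overlap between the groups.

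Few markers of other cells were listed. Of 15 mural cell markers, which label pericytes and vessel smooth muscle, 4 were listed and 3 tested, 2 of them called higher, where 39.5% of all tested genes were called. Notch3, the mural Notch receptor, rose from 182.4 ± 24.2 to 232.6 ± 15.9 normalised counts (SD, 3 libraries each, log2 fold change 0.35, edgeR adjusted p = 0.0029), and lost its call without insoluble replicate 3 (0.0537). Myh11, smooth muscle myosin, held 49.6, 43.1 and 41.5 against 58.0, 62.3 and 72.1, without overlap (log2 fold change 0.50, adjusted p = 0.0243), and lost it in DESeq2 (0.132), with library totals (0.0688), without insoluble replicate 2 (0.0623) or 3 (0.0675) and without OE replicate 3 (0.0801). Des, the muscle intermediate filament desmin, was not called, at 125.1 ± 4.2 and 115.2 ± 16.3 (log2 fold change -0.11, adjusted p = 0.485). Acta2, smooth muscle actin, had no count in the insoluble libraries and 1, 0 and 1 in OE.

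Of 34 peripheral myeloid, lymphoid and red-cell genes looked for, 5 were listed, 2 of them called higher and 2 lower, where 39.5% of all tested genes were called. Chil3, a chitinase-like protein of macrophages and granulocytes, held 74.8, 73.2 and 110.3 normalised counts in insoluble libraries against 43.7, 41.2 and 47.0 in OE (log2 fold change -0.96 ± 0.18 SE, edgeR adjusted p = 3.16e-06). Ngp, a neutrophil granule protein, held 99.1, 76.4 and 88.9 against 47.9, 50.4 and 54.3 (log2 fold change -0.80 ± 0.17 SE, adjusted p = 3.26e-05). Both were lower in every OE library. Lcn2, which neutrophils also store, did not follow, at 385.1 ± 29.7 and 391.3 ± 34.7 (SD, 3 libraries each, adjusted p = 0.786). Nbeal2, needed for platelet alpha granules, rose from 276.9 ± 22.3 to 341.5 ± 26.7 (log2 fold change 0.31, adjusted p = 0.00179), and lost its call without insoluble replicate 2 (0.0537) and without OE replicate 1 (0.0506). Of the words of Chil3 70.6% were unique to it and 18.5% occur in Chil4, so its count is uncertain.

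Ependymal and choroid plexus markers were represented by 3 of 19, of which Ccdc153, a gene of ciliated cells, fell from 270.4 ± 29.9 to 207.2 ± 26.2 normalised counts (SD, 3 libraries each, log2 fold change -0.38, edgeR adjusted p = 0.000588) and lost its call without insoluble replicate 2 (0.074). Hydin, a protein of the ciliary central apparatus, went the other way without being called, at 161.2 ± 5.4 and 180.9 ± 25.8 (log2 fold change 0.17, adjusted p = 0.208), and was called higher without OE replicate 3 (log2 fold change 0.27, adjusted p = 0.04). The axonemal dynein Dnah6 did not differ beyond its spread (375.7 ± 28.6 and 378.1 ± 50.2, adjusted p = 0.969). Of 18 fibroblast and meningeal genes 2 were listed, Col15a1, called higher, and Igf2, a growth factor, with 924, 945 and 876 normalised counts against 792, 873 and 809 in OE (log2 fold change -0.15, edgeR adjusted p = 0.0243). Igf2 lost its call in DESeq2 (0.0679), with upper-quartile scaling (0.0689), with scaling free of mitochondrially encoded genes (0.0528), without insoluble replicate 1 (0.116), 2 (0.217) or 3 (0.0509) and without OE replicate 1 (0.124). Igf2 shares 76.0% of its words with Gm49394, so its count is uncertain. None of 17 immediate early and stress genes was listed. The part of these minor cell types in the other differences was not tested.

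The mitochondrial genome encodes subunits of the respiratory chain, ribosomal RNAs and tRNAs, which are transcribed as long precursors from both strands and cut at the tRNAs. Of its genes 15 were listed and 9 tested, 4 of them called higher and 1 lower, or 55.6% against 39.5% of all tested genes. Summed over the 15, normalised counts rose from 17772 ± 166 in the insoluble fraction to 21455 ± 202 in OE (SD, 3 libraries each), and the larger part of that was mt-Tp. mt-Tp held 12913, 12826 and 12803 in insoluble libraries against 15256, 15527 and 15365 in OE, a log2 fold change of 0.26 ± 0.02 (SE, edgeR adjusted p = 1.59e-21), or 0.17 with library totals. Its share of the listed counts was 16.2% to 16.4% in the insoluble libraries and 18.3% to 18.4% in OE.

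Complex I subunits did not move alike. mt-Nd2 held 2208, 2110 and 2329 normalised counts in insoluble libraries against 3086, 3214 and 3424 in OE, a log2 fold change of 0.55 ± 0.04 (SE, edgeR adjusted p = 3.94e-26). mt-Nd1, its neighbour on the same strand, rose from 265.2 ± 8.7 to 308.0 ± 8.3 (SD, 3 libraries each, log2 fold change 0.21, adjusted p = 0.0382). mt-Nd5 was lower, at 556, 534 and 575 against 486, 443 and 529.8 (log2 fold change -0.19, adjusted p = 0.0198). mt-Nd3 had 277.2 ± 8.7 and 301.1 ± 8.4 and was not called (adjusted p = 0.276).

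The call of mt-Nd2 held in all 14 alternatives that tested it. mt-Nd1 lost its call in DESeq2 (adjusted p = 0.189), with the authors' size factors (0.0909) or library totals (0.267), without a filter (0.0515) or with a mean of at least 50 counts (0.0521), without insoluble replicate 1 (0.0701), 2 (0.0522) or 3 (0.101) and without OE replicate 1 (0.0818) or 3 (0.0587). mt-Nd5 lost its call in DESeq2 (0.0679), without insoluble replicate 1 (0.0959), 2 (0.0827) or 3 (0.163) and without OE replicate 1 (0.0743) or 2 (0.199).

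Of 3 tested subunits of the later complexes 1 was called, or 33.3%, near the 39.5% of all tested genes. mt-Cytb, of complex III, had 1057 ± 54 and 1118 ± 3 normalised counts (SD, 3 libraries each, log2 fold change 0.08, edgeR adjusted p = 0.212), and mt-Atp6, of the ATP synthase, 346.8 ± 14.01 and 356.2 ± 6.4 (0.04, adjusted p = 0.711). mt-Co1, the catalytic subunit of complex IV, held 94.1, 104.4 and 106.7 in insoluble libraries against 173, 163 and 113 in OE (log2 fold change 0.58 ± 0.13 SE, adjusted p = 0.000104), with OE replicate 3 close to the insoluble libraries. Only 48.9% of the words of mt-Co1 were unique to it, and 28.7% occur in the pseudogene Gm29216, so its count is uncertain. The small ribosomal RNA mt-Rnr1 did not differ beyond its spread (77.7 ± 7.7 and 74.3 ± 6.5, adjusted p = 0.778).

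Levels within this genome spanned a wide range. Per kilobase, mt-Tp, which is 67 bases long, stood at 191747 normalised counts in the insoluble fraction. Of the protein-coding genes, mt-Nd2 stood at 2134, mt-Cytb at 923.5, mt-Nd5 at 304, mt-Nd1 at 277, mt-Co1 at 65.8 and mt-Nd4 at 2.66. Only 37.8% of the words of mt-Nd4 were unique to it, so its level is uncertain. mt-Nd6, the only protein-coding gene on the minus strand of this genome, had 1 raw count in 1 insoluble library and 1 in 1 OE library. mt-Nd4, mt-Nd4l, mt-Nd6, mt-Co2, mt-Co3 and mt-Rnr2 were too low to test. Among these mt-Nd4 had 3, 3 and 4 raw counts in insoluble libraries against 11, 7 and 6 in OE, and mt-Co2 had 9, 5 and 5 against 20, 12 and 9.

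**Figure D4:**
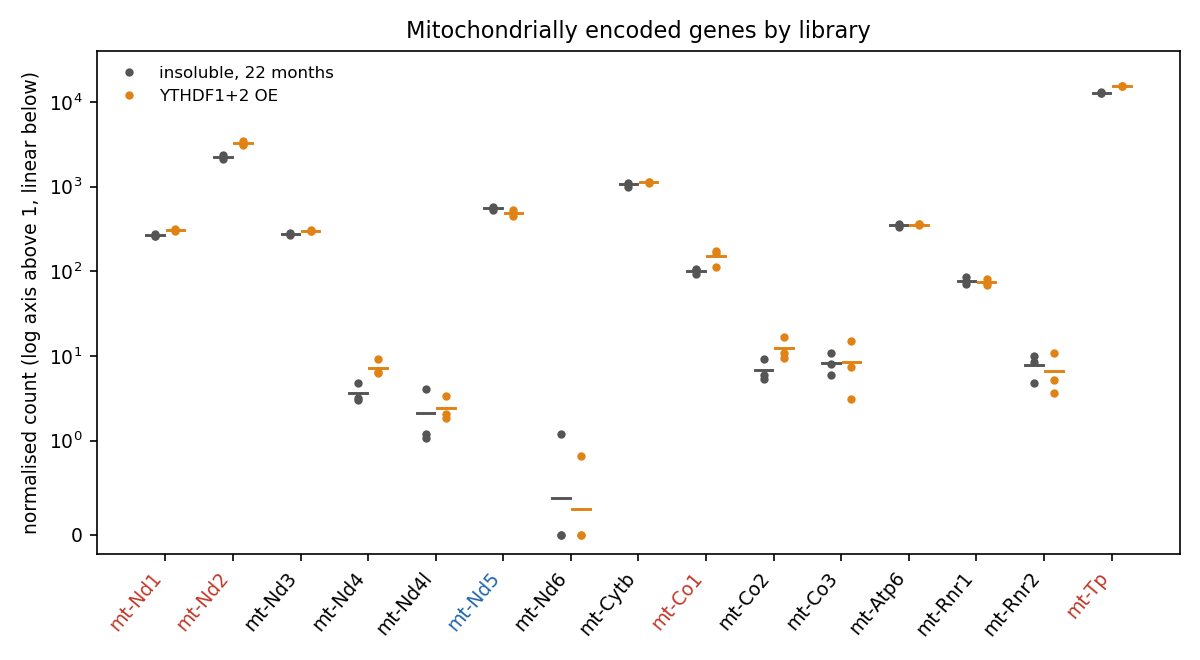
Normalised counts (y axis, log scale above 1 and linear below) of the 15 listed mitochondrially encoded genes in 3 insoluble (grey) and 3 OE (orange) libraries, with bars at the group means, red names for genes called higher in OE and blue for lower. mt-Tp stands near 12847 and 15383 in the 2 groups, while mt-Nd4, mt-Nd4l, mt-Nd6, mt-Co2, mt-Co3 and mt-Rnr2 lie below 20.

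Part of the mitochondrial sequence is also present in the nuclear genome. The table listed 6 pseudogenes side by side on chromosome 1 (minus strand) whose sequence matches mitochondrial genes almost throughout, and 4 were tested. Gm10222, all of whose 50-base words occur in mt-Nd4l, rose from 128.9 ± 9.1 to 193.3 ± 18.1 normalised counts (SD, 3 libraries each, log2 fold change 0.58, edgeR adjusted p = 5.95e-06), whereas mt-Nd4l itself had 4 raw counts or fewer in every library. Gm28437, all of whose words occur in mt-Co3, fell from 140.4 ± 3.1 to 101.8 ± 11.8 (log2 fold change -0.46, adjusted p = 0.0015). Gm28438 and Gm28661, which match mt-Nd3 and mt-Co2, were not called (adjusted p = 0.885 and 0.514). Reads from such a pair cannot be told apart by sequence, so the counts of mt-Nd3, mt-Nd4, mt-Nd4l, mt-Co2, mt-Co3 and mt-Atp6 and of these pseudogenes are uncertain.

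Opa1 and Fis1, named above for their roles in mitochondrial fusion and fission, were both tested, and they are not a full account of the listed genes of mitochondrial upkeep. Opa1 held 195, 200.2 and 215 normalised counts in insoluble libraries against 256, 247 and 217 in OE, with OE replicate 3 just above insoluble replicate 3. The log2 fold change was 0.25 ± 0.10 (SE, edgeR adjusted p = 0.0312), and its call was lost in DESeq2 (0.189), with the authors' size factors (0.0658) or library totals (0.194), without insoluble replicate 1 (0.116) or 2 (0.104) and without OE replicate 1 (0.15) or 2 (0.101). Fis1, at 5 to 17 raw counts, had a log2 fold change of -0.11 with a 95% interval of -0.91 to 0.68, and its sign changed without insoluble replicate 1 (0.17) or 2 (0.02) and without OE replicate 3 (0.01), so no direction was detectable at these counts.

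Cytosolic ribosomal protein genes were few, with 3 listed and 1 called, or 33.3%, near the 39.5% of all tested genes. Rps29, a small-subunit protein, held 53.6, 63.5 and 75.9 normalised counts in insoluble libraries against 115, 104 and 146 in OE (log2 fold change 0.92 ± 0.15 SE, edgeR adjusted p = 9.98e-08), with no overlap. Rps28 had 205 ± 6 and 230.5 ± 2.9 (SD, 3 libraries each, log2 fold change 0.17, adjusted p = 0.156), and Rps27rt 94.9 ± 17.9 and 107.1 ± 7.0 (adjusted p = 0.283). Rps29 shares 26.5% of its words with Gm14303 and Rps27rt 91.1% with Rps27, so both counts are uncertain. Rps28 overlaps the listed gene Kank3 by 3892 bases, where reads cannot be assigned without knowledge of strand.

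Genes not annotated as protein-coding made up 69 of the listed genes, and of the 59 tested 10 were higher and 10 lower (33.9%, against 39.5% of all tested genes). Antisense transcripts had 7 of 12 called, 3 higher and 4 lower, and intergenic long non-coding RNAs 1 of 10. The difference between these classes was not tested. Gm37074 rose from 206.4 ± 21.5 to 364.2 ± 21.4 normalised counts (SD, 3 libraries each, log2 fold change 0.82, edgeR adjusted p = 3.47e-14), and Gm9752 fell from 1123 ± 27 to 742.0 ± 23.6 (log2 fold change -0.60, adjusted p = 2.58e-18). Gm42853, which lies across Srrm4, a neuronal splicing regulator, fell from 452.4 ± 26.3 to 321.7 ± 4.5 (log2 fold change -0.49, adjusted p = 3.37e-08). Functions of these 3 transcripts are not given here.

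Neighbouring genes were singled out after their values were seen. Tbx3os1, the antisense transcript that overlaps the start of the T-box gene Tbx3 on chromosome 5 by 697 bases, held 929.5, 905 and 919 normalised counts in insoluble libraries against 666, 657 and 681 in OE (log2 fold change -0.46 ± 0.06 SE, edgeR adjusted p = 1.6e-11). Tbx3 held 317, 319 and 328 against 260.4, 329.8 and 322, with a log2 fold change of -0.08 ± 0.09 (SE, adjusted p = 0.44). The difference between the partners was not tested. On chromosome 8 Foxf1 and Fendrr, a divergent pair 1275 bases apart, were both not called, with log2 fold changes of -0.16 and 0.12 (adjusted p = 0.276 and 0.436).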

How the data were processed

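RNA-seq counts of 6 mouse mPFC libraries were analysed, 3 of the insoluble fraction at 22 months and 3 of YTHDF1 and YTHDF2 overexpression. The authors deposited raw counts per gene, per the file headers, and a mean signal per gene that equals the mean of size-factor-scaled counts in 235 of 237 genes (within a relative 1e-04), from which the authors' size factors were recovered. The submitters' processing notes name HISAT2 2.1.0, Bowtie2 2.2.3, HTSeq 0.6.0 and mm10, without roles. Strand use and gene selection are not given in the sources used here. Of 961 rows 724 were blank (75.3%) and left out, and the deposited fold changes and p-values were not used.

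Counts were filtered by filterByExpr (minimum count 10, minimum total 15), scaled by TMM and tested with glmQLFit and glmQLFTest of edgeR 4.0.16 under R 4.3.3, two-sided, OE minus insoluble, with BH adjustment over all 195 tested genes. SEs were derived from the fold change and F. The 95% intervals use the normal quantile. DESeq2 1.42.0 was an alternative. The procedure was tested on simulated data with independent libraries, which cannot show the effect of shared animals or of gene selection. Identifiers were matched to GENCODE M21 (GRCm38, 236 of 237), and sequences come from its transcripts. Words of 50 bases of the longest transcript were searched in all other genes' transcripts.

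Members and lists were chosen with earlier results of these data known. Named genes were the 15 highest and 15 lowest called genes without overlap, the 5 most abundant by count, the 10 most abundant per kilobase and listed members, and the text and plots give those the comparison turns on. Some genes of this set are not reported here. The roles of endothelial genes were assigned after their values were seen.

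Replicates of a group differed beyond counting noise in every pair (chi-square test of counts), from a chi-square per degree of freedom of 1.17 in insoluble replicates 2 and 3 (p = 0.0457) to 2.59 in OE replicates 1 and 3 (p = 8.81e-31). OE replicates 2 and 3 gave 2.17, so OE replicate 3 stood farthest from its group. Each library was counted as a sample, but this test cannot tell separate animals from repeat libraries of the same material. The median coefficient of variation per gene was 7.3% in the insoluble fraction and 8.43% in OE. Reads are not independent molecules, so counting error is a lower limit.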

Additional observations from a re-analysis of the deposited data

How the results depend on the processing

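Of the 77 genes called, 43 (24 higher and 19 lower in OE) kept their call in every one of the 15 alternatives that tested them, 34 lost it in at least 1, and 0 changed direction. The number called was 53 in DESeq2, all of them among the 77, 75 with upper-quartile scaling, 78 with library totals, 73 with scaling free of mitochondrially encoded genes, 78 without a filter and 70 with a mean of at least 50 counts. Other alternatives were chosen after seeing the data: the authors' size factors gave 76 and genes with at least 95% unique words 63. Leaving out each library in turn gave 55 to 75 genes, 32 to 40 higher and 22 to 35 lower. The number called lower was 23 in DESeq2, against 36, and the cause was not tested. With the replicate number as a block 73 genes were called, 71 of them among the 77. Same-numbered libraries did not deviate together (correlations of -0.0288, 0.0326 and 0.0925), so the numbers were not treated as pairs. The block ended the calls of Atcayos (adjusted p = 0.067), Erg (0.0798) and Flt1 (0.0813) among the named genes. Atcayos (log2 fold change -0.47) lost its call in 8 of 15 alternatives and Igf2 (-0.15) in 7 of 14. Fis1 (-0.11, not called) ranged from -0.41 without insoluble replicate 3 to 0.17 without insoluble replicate 1. Low counts limit precision: all 42 untested genes had a mean of at most 9.60 normalised counts.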
